A study of Homo sapiens with 9 samples.

Results

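The mRNAs of 6 DNA mismatch repair genes, MSH6, MSH3, PMS2, PMS1, MLH3 and EXO1, were followed in HCT116, an established cell line from a human colorectal carcinoma that is known to be deficient in this repair pathway. The genes were listed by name, and each matched 1 of the 15354 rows of the deposited table through its Ensembl identifier. Total RNA came from 9 reverse transfected cultures. Of these, 3 received a non-targeting control siRNA and 3 each siRNA A or siRNA B against the long non-coding RNA SNHG5. The dose recorded for these libraries was 25 nM, while the study's methods give a higher one for siRNA transfections. Poly(A) RNA was read as single ends of 50 bases. No other agent or allele separated the groups. The series asked which transcripts change when SNHG5 is depleted, and mismatch repair was not singled out by its design.

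Mismatch repair removes the errors that DNA polymerases leave behind the replication fork. MSH6 and MSH3 are MutS homologues, each paired in a heterodimer: that with MSH6 recognises base mismatches and short loops, that with MSH3 larger loops. PMS2, PMS1 and MLH3 are MutL homologues, of which PMS2 carries the endonuclease that nicks the strand to be repaired, MLH3 acts chiefly in meiotic crossing over, and PMS1 has no settled role in repair. EXO1 is the exonuclease that removes the stretch with the error. Cells without this pathway gain and lose bases in short repeats, which is known as microsatellite instability, and repeats inside coding sequences are then sites of frameshifts.

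Several of the genes hold such repeats themselves, and these are shown because they are the sequence feature that most of the members share. The GRCh37 coding sequence of the canonical transcript contained a run of at least 8 identical bases in 4 of the 6 genes, MLH3, MSH3, MSH6 and PMS2. Among 11836 coding sequences of tested genes, 804 or 6.79% held a run of that length. That share covers sequences of all lengths and was not matched to the 2586 to 4359 coding bases of the 4 genes. The longest runs of EXO1 and PMS1 were of 7 bases. In MLH3 the longest run, of 9 bases, lay in exon 2, within the window chr14:75514594-75514623 on the minus strand, and a second run reached at least 8. The run of MSH3 lay in exon 7 (window chr5:79970904-79970933, plus strand), that of MSH6 in exon 5 (window chr2:48030629-48030658, plus strand) and that of PMS2 in exon 11 (window chr7:6027146-6027175, minus strand). Below, each of these windows of 30 coding bases is written 5′ to 3′ on the gene's strand with the run in capitals:
MLH3: cagagaaagagAAAAAAAAAgaatctagca
MSH3: atgttagggacAAAAAAAAgggcaacattt
MSH6: gccggaagataCCCCCCCCttcttagagct
PMS2: gactggagaagAAAAAAAAgacgtgtccat
These are bases of the reference genome. The deposited values count reads per gene and carry no bases, so the state of the runs in these cells was not analysed here.

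The promoter windows of RefSeq, 250 bases before to 50 after a gene's start on GRCh38.p14, were searched on both strands for E2F-type sites, spelled TTTCGCGC or TTTGGCGC. Such a site was found for MSH3, 107 bases before its start, where 2 matches on opposite strands overlap, and for EXO1, 5 bases after its start in 1 of its 2 windows. No match was found in the windows of the other 4 genes, and 1.15% of all 35116 windows held one. The same windows were searched for CCAAT boxes, spelled CCAAT, and for CHR-type sites, spelled TTTGAA or TTCGAA. MSH6, PMS1 and PMS2 had a CCAAT box, as did 34.6% of all windows. No member had a CHR-type site, which 16.4% of all windows held.

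The libraries held from 15566530 to 23277549 reads, so that 1 CPM (a library's reads scaled to a fixed total) stood for 15.6 to 23.3 reads. SNHG5, the targeted RNA, ranged over 26.3–35.6 CPM (control), 50.0–63.9 CPM (siRNA A label) and 45.2–47.8 CPM (siRNA B label). Every library labelled as a knock-down thus held more of it than any control library, against the label, and below "siRNA A" and "siRNA B" mean the libraries so labelled. By qRT-PCR the study reported less SNHG5 in HCT116 cells after siRNAs against it. That assay lies outside the deposited values and was not analysed here. Of 12 colon epithelial markers, 8 reached 1 CPM in all libraries of each group. CEACAM5 was at 0 in control and siRNA B, and CDX1 and LGALS4 were not analysed here. The summed level of the 10 in the table was 2152 to 2254 CPM in control, 2904 to 3532 CPM in siRNA A and 2454 to 2547 CPM in siRNA B. Fibroblast and leukocyte markers summed to at most 19.7 and 1.67 CPM in any library. Levels below are CPM divided by a TMM factor, a scaling that sets the bulk of genes equal between libraries. Dropping that factor and using library totals alone moves log2 ratios to control by −0.37 (siRNA A) and −0.21 (siRNA B), and the direction of every change below is relative to the TMM scale. Fold changes are on the log2(CPM + 1) scale, from a limma model of 13893 genes, and a change was called at an adjusted p-value under 0.05.

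In the control libraries MSH6 and EXO1 were the most abundant of the 6 mRNAs and MSH3 the scarcest. Per kilobase of the canonical transcript, MSH6 stood at 24.6 ± 2.63 TMM-scaled CPM and EXO1 at 24.2 ± 1.23 (SD, n = 3 each). The libraries of this pair overlapped, so their order is not settled. PMS1 followed at 12.5 ± 1.32, PMS2 at 3.34 ± 0.677, MLH3 at 2.03 ± 0.359 and MSH3 at 1.01 ± 0.428. From PMS1 to MSH3 no neighbours in this order shared a value in the control libraries. Among 13349 tested genes with a transcript length the median was 7.23, and MSH6 and EXO1 exceeded 80.1% and 79.8% of genes per kilobase, whereas MSH3 exceeded 12.1%. MSH3 was lowest in the mean of all 3 groups. Divided instead by the length of all annotated exons, the order in control was EXO1 at 20.2, PMS1 at 7.25, MSH6 at 5.93, MLH3 at 1.90, PMS2 at 1.51 and MSH3 at 0.845 TMM-scaled CPM per kilobase. MSH3 alone kept its place under both lengths.

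**Figure D1:**
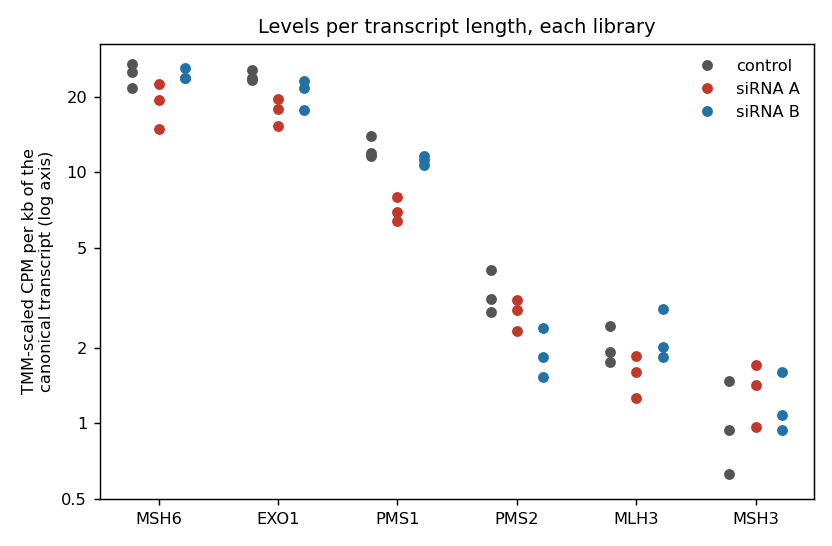
TMM-scaled CPM per kilobase of the canonical transcript (log axis) of each gene in each of the 9 libraries, 1 point per library, coloured by group. MSH6 and EXO1 are highest, MSH3 is lowest in the mean of each group, at 1.01 in control, and PMS1 with siRNA A lies clear below its other groups.

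Against control, 3 of the 6 genes fell in the libraries labelled siRNA A, namely PMS1, EXO1 and MSH6. In those labelled siRNA B only PMS2 fell. None rose in either comparison. With siRNA A 27.6% of all tested genes were lower and 51.4% were called in either direction, and with siRNA B 18.3% and 34.0%. The counts of 3 in 6 with siRNA A and 1 in 6 with siRNA B were no larger than the shares of all genes called in either direction. Against the shares that were lower, 3 in 6 was larger than 27.6% and 1 in 6 was not larger than 18.3%. No set test was run. Leaving out 1 library in turn, the count with siRNA A ranged from 2 to 4. The median log2 fold change of the 6 was −0.37 with siRNA A, where all tested genes had −0.02, and −0.08 with siRNA B, where all had 0.0043. With library totals alone 5 of the 6 were lower with siRNA A and 2 with siRNA B, and the medians were −0.72 and −0.29 against −0.34 and −0.18 for all genes. Libraries did not overlap with control in 2 of the 6 genes for siRNA A and in 2 for siRNA B, where 59.5% and 47.6% of all genes did not overlap. Both comparisons use the same control libraries.

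**Figure D2:**
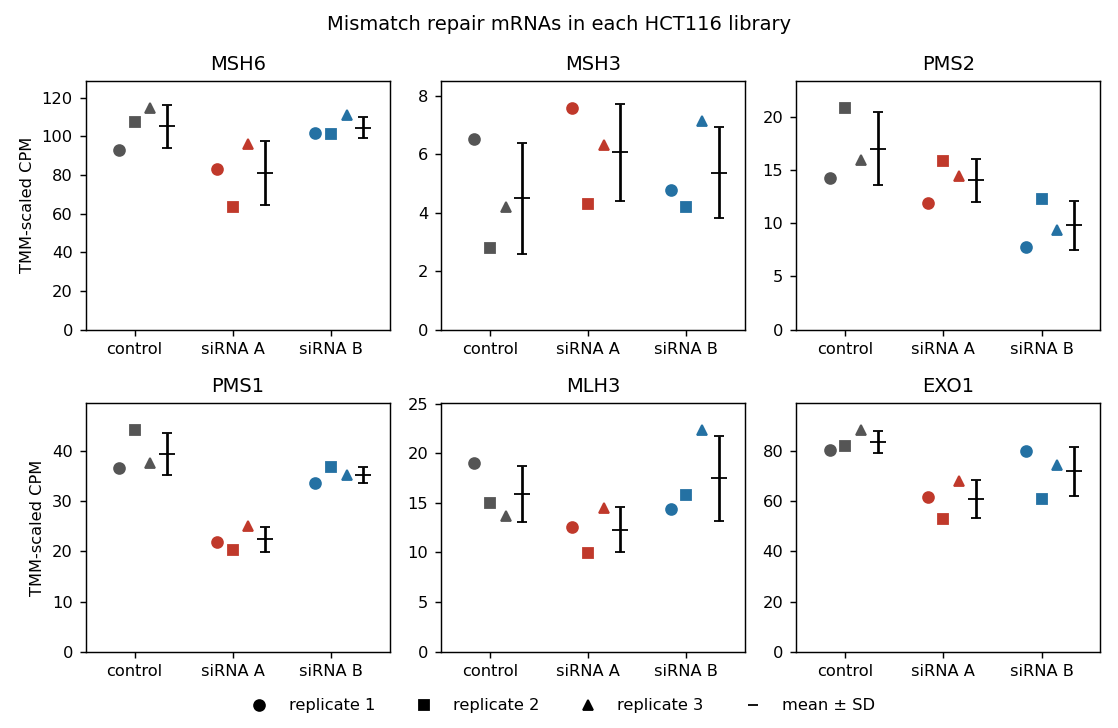
TMM-scaled CPM of the 6 mRNAs in each library, with a symbol per replicate number and the mean ± SD of each group of 3 beside it, all axes from 0. The 3 siRNA A values of PMS1 (20.3 to 25.1) lie below all other libraries, and the 3 siRNA B values of PMS2 (7.78 to 12.3) lie below all control values.

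The MutS subunit MSH6 (ENSG00000116062.8, chr2:47922669-48037202, plus strand) was the most abundant member in CPM. It stood at 92.8, 108 and 115 TMM-scaled CPM in the control libraries. The libraries labelled siRNA A held 83.0, 63.6 and 96.2, and those labelled siRNA B held 101.4, 101.1 and 111. Only the third siRNA A library reached into the control range, and siRNA B lay within it. With siRNA A MSH6 fell by 0.39 ± 0.14 (SE) in log2 terms (limma, adjusted p = 0.0383), 1.31-fold lower. Leaving out any 1 of control replicates 2 and 3, siRNA A replicates 1 and 2 or siRNA B replicate 1 ended this call, as did a fit with only the compared groups (adjusted p = 0.0511 to 0.151), and without siRNA A replicate 2 the value was −0.22, whereas library totals alone gave −0.75. With siRNA B it was −0.0042 (95% interval −0.31 to 0.30, limma, adjusted p = 0.985). MSH6 and FBXO11, which codes for an F-box protein, lie on opposite strands and share 4022 bases of annotated exon. FBXO11 went the other way, with log2 fold changes of 0.45 and 0.52 (limma, adjusted p = 0.00392 and 0.00278), and the use of strand in counting was not stated.

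MSH3 (ENSG00000113318.9, chr5:79950471-80172634, plus strand), the subunit for larger loops, was the scarcest member and the most variable. It had 6.54, 2.78 and 4.19 TMM-scaled CPM in control, 7.60, 4.31 and 6.32 with siRNA A, and 4.79, 4.196 and 7.14 with siRNA B. All 3 groups overlapped, and in each the lowest value was that of replicate 2. Between libraries of the same replicate number, MSH3 was higher with siRNA A than in control in 3 of 3. A replicate block shared by all groups gave an adjusted p of 0.0727 (limma), but whether the numbers pair libraries is not settled. These values rest on 57 to 164 reads per library, with a counting error of 7.81% to 13.2%, and the SD was 42.2% of the mean in control. Its log2 fold change was 0.39 with siRNA A (95% interval −0.18 to 0.96, limma, adjusted p = 0.228) and 0.24 with siRNA B (−0.33 to 0.81, adjusted p = 0.507). Without control replicate 1 the former was 0.65 and passed the threshold (adjusted p = 0.0482).

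Among the MutL homologues, PMS2 (ENSG00000122512.9, chr7:6010556-6048761, minus strand) stood at 14.2, 20.8 and 15.9 TMM-scaled CPM in control. It stood at 11.9, 15.8 and 14.4 with siRNA A and at 7.78, 12.3 and 9.34 with siRNA B. All siRNA B libraries lay below all control libraries, siRNA A overlapped both, and replicate 2 was the highest in each group. Between libraries of the same replicate number, PMS2 was lower with siRNA A than in control in 3 of 3. With a replicate block shared by all groups the adjusted p was 0.0681 (limma). With siRNA B PMS2 fell by 0.74 ± 0.18 (SE) in log2 terms (limma, adjusted p = 0.00840), 1.67-fold lower, and all 20 alternative settings kept that call (−0.94 to −0.61, adjusted p at most 0.0385). With siRNA A the log2 fold change was −0.25 (95% interval −0.65 to 0.14, limma, adjusted p = 0.263), which passed only with library totals alone (−0.60, adjusted p = 0.0118). PMS2 has near-identical pseudogene copies on the same chromosome. No row of the table carried the name of one, and the handling of reads that match several copies was not stated, so its values are uncertain to that extent.

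PMS1 (ENSG00000064933.12, chr2:190648811-190742355, plus strand) fell with siRNA A by a size like that of PMS2 with siRNA B. Control libraries held 36.6, 44.3 and 37.6 TMM-scaled CPM, those labelled siRNA A 22.0, 20.3 and 25.1, and those labelled siRNA B 33.7, 36.8 and 35.3. The siRNA A libraries lay apart from the other 6, while siRNA B overlapped control. With siRNA A PMS1 fell by 0.79 (SE 0.11, limma, adjusted p = 1.92e-04), 1.73-fold lower, and all 20 alternatives kept the call (−1.15 to −0.72, adjusted p at most 0.00127). With siRNA B it had a log2 fold change of −0.16 (95% interval −0.41 to 0.09, limma, adjusted p = 0.323), which passed only after a correction for GC content chosen after seeing the data (−0.31, adjusted p = 0.0434). PMS1 shares 96 bases of exon with ORMDL1 on the other strand. ORMDL1, a regulator of sphingolipid synthesis, had log2 fold changes of −0.07 and 0.15 (limma, adjusted p = 0.700 and 0.487).

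MLH3 (ENSG00000119684.11, chr14:75480472-75518235, minus strand) did not pass the threshold with either siRNA. Its libraries held 19.1, 14.98 and 13.7 TMM-scaled CPM in control, 12.5, 9.90 and 14.5 with siRNA A, and 14.4, 15.8 and 22.4 with siRNA B. The third siRNA A library and all siRNA B libraries but the highest lay within the control range. The log2 fold changes were −0.35 with siRNA A (95% interval −0.75 to 0.06, limma, adjusted p = 0.138) and 0.12 with siRNA B (−0.29 to 0.52, adjusted p = 0.661). With library totals alone MLH3 was lower with siRNA A (−0.69, adjusted p = 0.00815), and the siRNA B value turned to −0.08 (adjusted p = 0.768).

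The exonuclease EXO1 (ENSG00000174371.12, chr1:242011269-242058450, plus strand) stood at 80.4, 81.7 and 88.3 TMM-scaled CPM in control. It stood at 61.6, 52.7 and 67.8 with siRNA A and at 79.8, 60.9 and 74.5 with siRNA B. Every library of either siRNA lay below every control library, though the first siRNA B library did so narrowly. With siRNA A EXO1 fell by 0.46 (SE 0.12, limma, adjusted p = 0.00916), 1.37-fold lower, a call kept under all 20 alternatives (−0.82 to −0.36, adjusted p at most 0.0386), of which library totals alone gave the −0.82. With siRNA B the log2 fold change of −0.22 did not pass (95% interval −0.50 to 0.05, limma, adjusted p = 0.190), except with library totals alone (−0.43, adjusted p = 0.0343).

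The siRNAs were then compared with each other. PMS1 was lower in the libraries labelled siRNA A than in the siRNA B libraries (log2 difference −0.63, SE 0.11, limma, adjusted p = 0.00142). It was the only member past the threshold here, where 37.1% of all tested genes were called and 19.5% were lower with siRNA A. For PMS2, MSH6 and MLH3 the difference lay just outside it. PMS2 was 0.49 higher with siRNA A (95% interval 0.09 to 0.88, limma, adjusted p = 0.0519) and passed under 8 of 20 alternatives. MSH6 differed by −0.38 (−0.69 to −0.07, adjusted p = 0.0522) and MLH3 by −0.47 (−0.87 to −0.06, adjusted p = 0.0691), which passed under 5 and 2 of them. With the replicate block, whose pairing is not settled, PMS2, MSH6 and MLH3 passed (limma, adjusted p = 0.00361, 0.0177 and 0.0367). In the main fit, without that block, the fall of PMS2 with siRNA B and that of MSH6 with siRNA A were not shown to be particular to either siRNA. For EXO1 the difference was −0.24 (−0.51 to 0.04, adjusted p = 0.158), and for MSH3 it was 0.15 (−0.42 to 0.72, adjusted p = 0.684). Libraries did not overlap between the siRNAs for 2 of the 6, MSH6 and PMS1, against 47.6% of all genes.

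**Figure D3:**
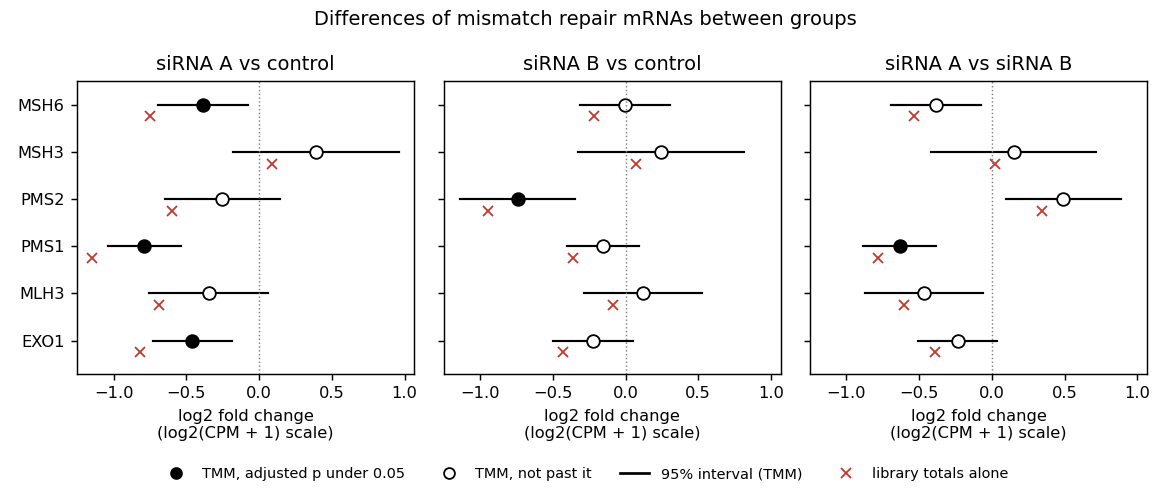
Log2 fold change of the 6 mRNAs in the 3 comparisons on the log2(CPM + 1) scale, with 95% intervals from limma after TMM scaling; filled circles passed an adjusted p of 0.05, and red crosses give the value with library totals alone. PMS1, EXO1 and MSH6 are filled for siRNA A, PMS2 alone for siRNA B, PMS1 alone between the siRNAs, and the crosses lie to the left of the circles throughout.

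The mRNAs of other proteins of mismatch excision and resynthesis were read from the same fit. A list of 15 genes held PCNA, the clamp, the RFC clamp loader, the single-strand binding protein RPA, DNA polymerase delta, the ligase LIG1 and HMGB1. With siRNA A 4 of the 15 were higher and 5 lower, and with siRNA B 4 were higher and 3 lower, where 51.4% and 34.0% of all tested genes were called in either direction. Library totals alone gave 1 higher and 7 lower with siRNA A, and 2 higher and 3 lower with siRNA B. The median log2 fold changes of −0.03 and 0.18 stood beside −0.02 and 0.0043 for all tested genes. POLD2, a subunit of polymerase delta, fell by 0.99 with siRNA A and 1.11 with siRNA B (limma, adjusted p = 5.91e-05 and 5.70e-05). RPA1, the large subunit of RPA, fell by 0.41 and 1.71 (adjusted p = 0.00722 and 1.67e-06), and siRNA A exceeded siRNA B by 1.29 (adjusted p = 1.49e-05). LIG1, which seals the repaired strand, fell by 0.50 and 0.54 (adjusted p = 0.00487 and 0.00536). HMGB1, a chromatin protein that can assist excision, rose by 0.87 and 0.60 (adjusted p = 4.92e-04 and 0.00831). RFC5 rose by 0.35 and 0.52 and RPA2 by 0.28 and 0.44 (limma, adjusted p = 0.0101, 0.00175, 0.0246 and 0.00402), but none of these 4 calls held with library totals alone, where both siRNA A values turned to −0.02 and −0.08. POLD4 rose with siRNA B by 0.90 (limma, adjusted p = 8.24e-04), from a low level of 2.10 TMM-scaled CPM in control to 4.79. PCNA had −0.12 and 0.28 (adjusted p = 0.396 and 0.0686).

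Of 7 accessory factors, 4 were lower and 2 higher with siRNA A, and 1 lower and 2 higher with siRNA B, beside 27.6% and 18.3% of all tested genes that were lower and 51.4% and 34.0% called in either direction. With library totals alone 5 were lower with siRNA A and 1 with siRNA B, and none was higher. The medians were −0.35 and 0.04. FAN1, a nuclease that binds MutL proteins, fell by 0.67 and 0.37 (limma, adjusted p = 0.00150 and 0.0498). MCM8, a helicase of recombination, fell by 0.84 with siRNA A (adjusted p = 3.41e-04) and had 0.13 with siRNA B (adjusted p = 0.494). Directly compared, MCM8 was lower with siRNA A than with siRNA B (−0.97, adjusted p = 2.70e-04). SETD2, whose histone mark recruits MSH6 to chromatin, rose by 0.53 and 0.51 (adjusted p = 0.0117 and 0.0226). PCLAF, which binds PCNA, rose by 0.52 and 0.51 (adjusted p = 0.0150 and 0.0242). Neither SETD2 nor PCLAF passed with library totals alone (0.15 to 0.30, adjusted p = 0.142 to 0.452). The meiotic MutS homologues MSH4 and MSH5 passed with neither siRNA, with log2 fold changes of 0.11 and −0.30 with siRNA A and 0.36 and 0.32 with siRNA B, and MSH5 was lower with siRNA A than with siRNA B (−0.63, limma, adjusted p = 0.00583). With library totals alone MSH5 was also lower with siRNA A than in control (−0.60, adjusted p = 0.00519).

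**Figure D4:**
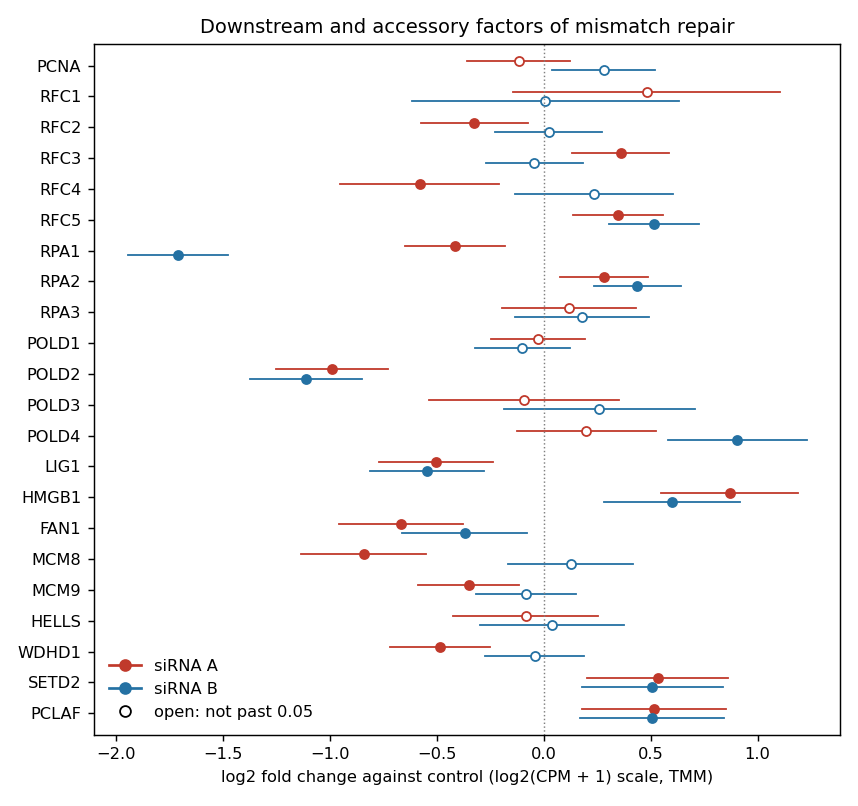
Log2 fold change against control, with 95% intervals from limma after TMM scaling, of 15 excision and resynthesis genes and 7 accessory factors, red for siRNA A and blue for siRNA B; filled circles passed an adjusted p of 0.05. POLD2 and LIG1 lie left of 0 and HMGB1 right of 0 for both siRNAs, and RPA1 with siRNA B lies farthest left, at −1.71.

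Base excision repair, which replaces damaged bases, served as a neighbouring pathway of 20 genes. With siRNA A 5 were higher and 7 lower, and with siRNA B none was higher and 5 were lower (1 and 13, then none and 10, with library totals alone), against 51.4% and 34.0% of all tested genes called. The medians of −0.08 and −0.08 lay near those of all genes. TDG, NEIL3 and XRCC1 passed with both siRNAs, falling by 0.45, 1.29 and 0.98 with siRNA A (limma, adjusted p = 0.00643, 1.46e-05 and 4.59e-05). With siRNA B they fell by 0.79, 0.46 and 0.56 (adjusted p = 3.95e-04, 0.0147 and 0.00302), and NTHL1, a glycosylase, fell by 1.44 (adjusted p = 6.77e-05).

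Genes of S phase, when EXO1 and MSH6 are known to be most expressed, were read beside the members because libraries may differ in the share of cycling cells. In bulk RNA fewer cells in that phase and less RNA per cell cannot be told apart. Of 19 such genes in the table, 3 were higher and 6 lower with siRNA A, and 1 was higher and 5 lower with siRNA B. These counts lay near the 51.4% and 34.0% of all tested genes called in either direction. Library totals alone gave none higher and 13 lower, then none and 7. After TMM scaling the 19 genes had median log2 fold changes of −0.20 and −0.0061, where all tested genes had −0.02 and 0.0043. With siRNA A 13 of the 19 genes lay below 0, and with siRNA B 10. Their summed level was 3406 to 3570 TMM-scaled CPM in control, 3278 to 3386 in siRNA A and 3008 to 3636 in siRNA B. The lowest sum, 3008, belonged to siRNA B replicate 2, which also had the lowest EXO1 value of its group. In siRNA A replicate 2 was likewise lowest in both. In control the lowest sum was that of replicate 2, but the lowest EXO1 value was that of replicate 1. E2F1, an activator of S phase genes, fell by 1.67 and 1.09 (limma, adjusted p = 2.39e-05 and 7.20e-04). GINS2, a part of the replicative helicase, fell by 1.03 and 0.71 (adjusted p = 3.31e-04 and 0.00595), and CCNE1, a cyclin of entry into S phase, by 0.32 and 0.79 (adjusted p = 0.0150 and 1.29e-04). By EdU incorporation the study reported fewer HCT116 cells in S phase after siRNAs against SNHG5, in an assay not analysed here. The part of the cell cycle in the members' values was not tested.

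Genes whose log2 values over the 9 libraries were most like each member were listed as a description, since the 9 points fall into 3 groups. For PMS1 these were SLC22A23, PGAP4 and ENSG00000258634, with Pearson's r of 0.996, 0.988 and 0.987. For PMS2 they were FERMT1, TRAPPC9 and FTO, an RNA demethylase (0.992, 0.986 and 0.981). The group means of FERMT1 were 69.4 (control), 61.1 (siRNA A) and 44.8 (siRNA B) TMM-scaled CPM. That it shares the order of PMS2 comes with its choice by correlation. EXO1 was nearest to CSGALNACT1, MTFR2 and NUP42 (0.982, 0.973 and 0.971), and MSH6 to BEND7, ENSG00000262313 and BUD13 (0.970, 0.956 and 0.950). MLH3 was nearest to CDCA2, ENSG00000269044 and ASPM (0.970, 0.960 and 0.953), of which ASPM is a protein of the mitotic spindle. MSH3 was nearest to GCC2, CWC27 and BOD1L1 (0.974, 0.969 and 0.964).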

How the data were processed

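The authors deposited CPM values, 1 column per library and not pooled, with Ensembl gene identifiers. The submitters' processing notes name TopHat2, HTSeq and GRCh37 (hg19); strand use and multi-mapping reads are not described in the sources used here. All values (100%, tolerance 0.1) were whole multiples of 1 read, so reads and library totals were recovered. Symbols were matched for 14871 of 15354 identifiers through GENCODE lifted to GRCh37.

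Rows reaching 1 CPM in 3 or more libraries were tested (13893, all 6 members among them) by limma 3.58.1 (R 4.3.3) on log2(CPM + 1) after TMM scaling (edgeR 4.0.16), with a mean per group over all 9 libraries, a variance trend and Benjamini-Hochberg adjustment over all tested genes. edgeR and DESeq2 1.42.0 were run on the recovered reads as alternatives. The scripts were tested on simulated data. Members and lists were chosen with earlier results of these data known. Named genes were the members, the 3 genes closest to each by Pearson's r, from each list those past the threshold in both siRNA comparisons and the largest in each, and genes overlapping a member, of which 1 is not reported here. PCNA and POLD4 fall outside this rule and were named after their values were seen. Replicates were biological per the study's methods; within groups the chi-square of reads per degree of freedom never fell under 12.6, above sampling noise. The labels give no source for a batch shared by libraries of the same replicate number. Between siRNA A and control the deviations of such libraries correlated at 0.65, 0.41 and 0.13. The values were 0.17, 0.45 and −0.39 for siRNA B with control and 0.20, 0.44 and 0.02 for siRNA A with siRNA B. Libraries of unlike numbers were not compared, so a pairing is not settled. The replicate block was shared by all groups. Errors from read numbers cover counting only.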

Additional observations from a re-analysis of the deposited data

Results flagged for a closer look

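The response of PMS1 differed between the siRNAs. The log2 difference, siRNA A minus siRNA B, was −0.63 by the test of the difference itself (limma, adjusted p = 0.00142), and all 3 siRNA A libraries were below all 3 siRNA B libraries. All 20 alternative settings kept this difference (−0.78 to −0.57, adjusted p at most 0.00641).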

How the results depend on the processing

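Each member's 3 log2 fold changes were recomputed under 20 alternatives, 360 values in all. Of these, 332 kept their direction or stayed within the error and kept their side of the threshold, 21 passed it newly, 6 lost it (all for MSH6 with siRNA A), 1 uncalled value changed direction (MLH3 with siRNA B, −0.08 with library totals alone) and none reversed a call. Library totals alone raised the number of members past the threshold to 5 for siRNA A, 2 for siRNA B and 3 between the siRNAs. Against TMM, that scaling lowers the ratios to control. It also lowers those of siRNA A to siRNA B, whose mean TMM factors were 0.886 and 0.988. GC correction gave 2 for siRNA B and 2 between the siRNAs. Between the siRNAs the count of 1 became 2 with RLE scaling, a pseudocount of 0.1, at least 5 CPM in 3 libraries and DESeq2, and it ranged from 1 to 3 when 1 replicate was left out, with 3 without siRNA B replicate 2 and 2 without control replicate 1 or 2 or siRNA A replicate 1 or 3. The cause was not tested. With the replicate block that count was 4, and whether the replicate numbers pair those groups is not settled. In the comparison of siRNA A with control, the replicate block left 3 members past the threshold. It changed no member's call there or for siRNA B against control. GC correction was chosen after seeing the data. MSH3 had the fewest reads, 57 to 164 per library, and its spread between replicates (27.3% to 42.2% of the mean) exceeded the counting error.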
